A study of Mus musculus with 4 samples.

Results

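Hair and nail are built from trichocyte keratins, the hard keratins of hair and nail, and 8 of them that mark the matrix, the cuticle and other sites outside the cortex were taken by gene name, namely Krt32, Krt35, Krt36, Krt39, Krt40, Krt82, Krt84 and Krt85. Of these, 7 were measured among 45706 genes in the count table, and Krt85 was not analysed here. All 7 had a level of at least 1 CPM (counts scaled to library size) in at least 1 library, as did 17332 genes in all. RNA-seq was done on regenerating digit tips of mice, harvested at day 14 after amputation and trimmed at the distal joint, with 1 library per genotype. The labels name the genotypes Wildtype, Mmu.Sp6 cKO, Mmu.Sp8 cKO and Mmu.Sp6+Sp8 cKO, the last called the double knockout here (cKO, conditional knockout). Sp6 and Sp8 are zinc-finger transcription factors of 1 family that are active in epidermis. The 3 cKO libraries belong to batch 1 and wildtype to batch 3, so a batch difference and a knockout difference cannot be told apart against wildtype, whereas cKO libraries can be compared with each other. For the conditional knockouts, the protocol in the labels gives tamoxifen at 75 mg/kg on each of 5 days and then 5 days of rest. The sources used here do not give the Cre driver, the strain, the age, the number of animals per library or whether wildtype mice had tamoxifen. The protocol describes amputation through the last and the middle phalanx without saying which was used for these libraries.

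Trichocyte keratins form filaments as pairs of an acidic type I and a basic type II chain. Cells leaving the hair or nail matrix switch them on in order, the earliest in the matrix and later ones in the cortex, which makes the bulk of the fibre or plate, or in the cuticle, its outer sheath of flat cells. Among the members, Krt35 is a type I keratin of the matrix and early cuticle and cortex, Krt32 (type I) and Krt82 (type II) are keratins of the hair cuticle, and Krt39 and Krt40 are type I keratins that appear late. Krt36 (type I) and Krt84 (type II) are known from the nail and from the filiform papillae of the tongue. Hoxc13, a homeobox factor, is a known regulator of hair keratin genes.

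The members lie in both keratin clusters of the mouse genome, here placed by GENCODE M21 on GRCm38. The type I genes are on the minus strand of chromosome 11, with Krt39 (ENSMUSG00000064165) at 99514114 to 99521338 and Krt40 (ENSMUSG00000059169) at 99537485 to 99543158. Farther along are Krt32 (ENSMUSG00000046095) at 100080848 to 100088226, Krt35 (ENSMUSG00000048013) at 100092193 to 100096241 and Krt36 (ENSMUSG00000020916) at 100102007 to 100105626. The type II genes are on the minus strand of chromosome 15, with Krt84 (ENSMUSG00000044294) at 101525026 to 101532820 and Krt82 (ENSMUSG00000049548) at 101541214 to 101550667. No protein-coding gene lies between Krt39 and Krt40, Krt32 and Krt35, Krt35 and Krt36, or Krt84 and Krt82, which are 16.1, 3.97, 5.77 and 8.39 kb apart.

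Promoters are shown for 5 members because members of these clusters differed in how they varied between libraries. That of Krt39, the neighbour of Krt40, is not printed. RefSeq promoter sequence on GRCm38.p6 was matched for 6 of the 7 measured members, with Krt35 the unmatched one. The 250 bases before the RefSeq start are printed. For Krt32, Krt40 and Krt82 this start differs from the GENCODE gene end given above. Capitals mark TTTTANNNG on either strand, a motif chosen after the sequences were read, whose T-rich core resembles the known binding sequence of posterior Hox proteins such as Hoxc13. Krt82, Krt32 and Krt40 were lower in the Sp6 cKO library, and Krt36 and Krt84 were not.
Krt82, chr15:101550660-101550909, minus strand: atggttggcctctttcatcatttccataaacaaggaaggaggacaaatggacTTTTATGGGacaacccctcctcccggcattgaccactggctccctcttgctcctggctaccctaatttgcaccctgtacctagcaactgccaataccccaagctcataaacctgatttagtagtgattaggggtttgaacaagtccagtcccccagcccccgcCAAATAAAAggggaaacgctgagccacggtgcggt
Krt32, chr11:100088270-100088519, minus strand: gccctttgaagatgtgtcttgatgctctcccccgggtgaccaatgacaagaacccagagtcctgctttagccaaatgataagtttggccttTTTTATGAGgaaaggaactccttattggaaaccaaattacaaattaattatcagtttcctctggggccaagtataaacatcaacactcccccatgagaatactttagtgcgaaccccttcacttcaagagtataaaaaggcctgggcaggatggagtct
Krt40, chr11:99543221-99543470, minus strand: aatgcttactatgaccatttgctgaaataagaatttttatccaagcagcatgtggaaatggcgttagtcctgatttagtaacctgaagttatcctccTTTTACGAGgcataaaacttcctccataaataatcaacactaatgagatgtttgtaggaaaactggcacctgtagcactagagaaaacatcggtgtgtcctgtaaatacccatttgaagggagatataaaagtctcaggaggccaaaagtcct
Krt36, chr11:100105627-100105876, minus strand: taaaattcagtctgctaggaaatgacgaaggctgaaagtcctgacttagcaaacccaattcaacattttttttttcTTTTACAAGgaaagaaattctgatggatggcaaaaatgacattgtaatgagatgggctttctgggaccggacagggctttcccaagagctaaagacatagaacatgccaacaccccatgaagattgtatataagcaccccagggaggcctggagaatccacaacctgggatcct
Krt84, chr15:101532821-101533070, minus strand: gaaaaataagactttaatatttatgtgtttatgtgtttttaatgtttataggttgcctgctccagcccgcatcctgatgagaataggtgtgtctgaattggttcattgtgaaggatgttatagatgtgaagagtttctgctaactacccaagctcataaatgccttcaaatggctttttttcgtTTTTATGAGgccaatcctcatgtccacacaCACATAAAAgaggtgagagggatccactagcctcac

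Each of the 6 matched promoters, that of Krt39 included, held TTTTANNNG, against 11.3% of 32851 windows of the same length in the table. The exact form TTTTATGAG, one case of the first motif, stood in the windows of Krt32, Krt39 and Krt84 and in 0.253% of all windows. TTTTACGAG, another case of it, stood in the window of Krt40 and in 0.0183% of all windows. On the gene's own strand the motif began 198 bases before the start in Krt82, 159 in Krt32, 153 in Krt40, 174 in Krt36 and 66 in Krt84. The motif was also in 3 of 3 cortex keratin promoters and in 1 of 7 inner root sheath keratin promoters that were matched. GGGCGG and GGGTGG, GC-rich boxes of the kind that Sp factors are known to bind, were in none of the 6 member windows on either strand, against 32.7% and 28.1% of all windows. GGGCGG was likewise in 0 of 3 cortex and 0 of 7 inner root sheath keratin promoters, and GGGTGG was in 1 of 3 and 3 of 7. The members' motif was read from their own sequences, so its share among them is a description, and promoters of members that were lower and of members that were not both held it.

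Depth and tissue were examined before the members. Counts summed to between 12588511 and 21834883 per library. Among marker lists, basal keratinocyte genes summed to between 6012 and 6628 CPM, fibroblast genes to between 12379 and 15630 CPM, and osteoblast genes to between 289 and 395 CPM, while 4 skeletal muscle genes summed to between 0.138 and 0.635 CPM. Inner root sheath keratins, which mark hair follicles, summed to between 1050 and 1513 CPM, so follicle transcripts were present, and the parts of the members' RNA from hair and from nail were not tested. Sp6 itself was 97.7 CPM in wildtype and 95.6 in Sp8 cKO, 29.2 in Sp6 cKO and 57.8 in the double knockout, which thus kept more Sp6 transcript than the single one. Sp8 was 63.9 CPM in wildtype and 66.1 in Sp6 cKO, but 13.4 in the double knockout and 16.8 in Sp8 cKO. Xist, expressed from the inactive X chromosome, was 27.9 CPM in Sp8 cKO and between 1526 and 3528 CPM in the other libraries, while the Y-linked Kdm5d was between 32.0 and 65.3 CPM in all 4, and the part of this in the results was not tested.

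With 1 library per group no difference could be tested against variation between animals, no p-value is given, and each comparison describes 2 libraries. A gene is called higher or lower past the size rule where its log2 ratio was at least 1 in either direction, its CPM at least 1 in either library, and the exact 95% interval of its count ratio excluded 1. Intervals cover counting error only.

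Krt82, a type II keratin of the hair cuticle, was lowest in the Sp6 cKO library. It stood at 41.3 CPM in wildtype and 38.6 in Sp8 cKO, 7.44 in Sp6 cKO and 18.8 in the double knockout. The wildtype and Sp8 cKO libraries were close, Sp6 cKO was lowest and the double knockout lay between. Against wildtype Krt82 was 5.55-fold lower in Sp6 cKO (95% interval 4.50 to 6.93) and 2.20-fold lower in Sp6+Sp8 cKO (95% interval 1.93 to 2.52). In Sp8 cKO its log2 ratio was -0.10, with a fold of 1.07 lower (95% interval 0.959 to 1.20).

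Krt32, the type I keratin of the hair cuticle, had the same order of libraries. It stood at 58.8 CPM in wildtype and 52.6 in Sp8 cKO, 16.4 in Sp6 cKO and 33.6 in the double knockout. It was 3.60-fold lower in Sp6 cKO than in wildtype (95% interval 3.11 to 4.18). In Sp6+Sp8 cKO it was 1.75-fold lower (95% interval 1.58 to 1.94), a log2 ratio of -0.81 that did not reach the size rule, and in Sp8 cKO 1.12-fold lower (95% interval 1.02 to 1.23).

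Krt40, a late type I keratin, was the scarcest member and had the most negative ratio. It had 156 counts in wildtype (7.17 CPM) and 63 in Sp8 cKO (5.00 CPM), 4 in Sp6 cKO (0.310 CPM) and 22 in the double knockout (1.43 CPM). Wildtype was again highest and Sp6 cKO lowest. Krt40 was 23.1-fold lower in Sp6 cKO, with a wide 95% interval of 8.86 to 86.0 because of the 4 counts, and 5.02-fold lower in Sp6+Sp8 cKO (95% interval 3.20 to 8.24). In Sp8 cKO it was 1.43-fold lower (95% interval 1.06 to 1.95), inside the size rule.

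Krt35, the matrix keratin, was also lowest in Sp6 cKO but differed by less. Its levels were 139 CPM in wildtype and 163 in Sp8 cKO, 89.0 in Sp6 cKO and 122 in the double knockout. Sp6 cKO was lowest and Sp8 cKO, not wildtype, was highest. Its log2 ratios to wildtype were -0.64 in Sp6 cKO, 0.23 with Sp8 cKO and -0.19 in the double knockout, all inside the size rule, and the 95% interval of each ratio excluded 1.

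Krt36 and Krt84, keratins known from nail and tongue, were nearly level between wildtype and both single knockouts. Krt36 stood at 270.3 CPM in wildtype and 275 in Sp8 cKO, 278 in Sp6 cKO and 352 in the double knockout. Krt84 stood at 408 CPM in wildtype and 397 in Sp8 cKO, 413 in Sp6 cKO and 503 in the double knockout. For both genes the double knockout was the highest library. There Krt36 was 1.30-fold higher than wildtype (95% interval 1.26 to 1.35) and Krt84 was 1.23-fold higher (95% interval 1.19 to 1.27), short of the size rule. In Sp6 cKO the ratios to wildtype were 1.03 for Krt36 (95% interval 0.987 to 1.07) and 1.01 for Krt84 (95% interval 0.978 to 1.05).

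Krt39, which lies next to Krt40, had another pattern. It stood at 69.1 CPM in wildtype and 66.9 in Sp8 cKO, 80.4 in Sp6 cKO and 35.9 in the double knockout. Sp6 cKO was the highest library for Krt39 and the lowest for Krt40. In the double knockout Krt39 was 1.93-fold lower than in wildtype (95% interval 1.75 to 2.13), a log2 ratio of -0.94 just inside the size rule.

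**Figure D1:**
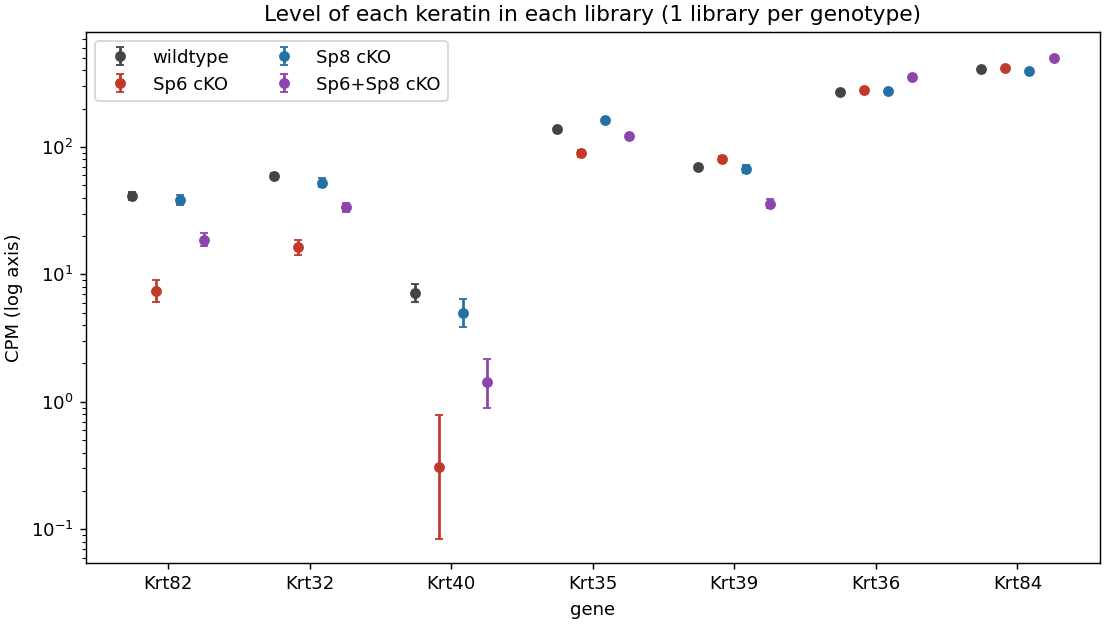
CPM (log axis) of the 7 measured keratins in the 4 libraries, 1 point per library, with exact 95% Poisson intervals for counting error. Krt82, Krt32 and Krt40 are lowest in Sp6 cKO and intermediate in Sp6+Sp8 cKO, Krt39 is lowest in Sp6+Sp8 cKO, and Krt36 and Krt84 vary little.

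Levels of different genes were compared as CPM per kb of merged exons. Krt36 and Krt84 led in every library, at 162 and 155 CPM per kb in wildtype, and Krt40 was last, at 5.44. In wildtype the order between them was Krt35 at 57.9, Krt39 at 42.3, Krt32 at 34.2 and Krt82 at 19.6. The same order held in Sp8 cKO and Sp6+Sp8 cKO, while in Sp6 cKO Krt39 (49.2) stood above Krt35 (37.2). The steps between neighbours exceeded counting error except that Krt39 and Krt32 in Sp6+Sp8 cKO differed 1.13-fold (95% interval 0.996 to 1.27). Krt36 was above Krt84 by between 1.05-fold and 1.11-fold, on merged exon lengths.

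By count, 3 of 7 members were lower in Sp6 cKO than in wildtype past the size rule and 0 higher, against 2.16% lower and 2.24% higher (4.4% in all) of 16884 genes compared. The 3 were Krt32, Krt40 and Krt82, and the median log2 ratio of the members was -0.64, against -0.01 over all genes compared. In Sp8 cKO 0 of 7 passed in either direction, against 1.55% of genes lower and 2.27% higher (3.82% in all), and the members' log2 ratios ran from -0.51 to 0.23. In Sp6+Sp8 cKO 2 of 7, Krt40 and Krt82, were lower and 0 higher, against 2.95% and 2.84% (5.79% in all). Relative to the summed cortex keratins of the same library, Krt82 and Krt32 had log2 ratios to wildtype of -2.53 and -1.92 in Sp6 cKO, but -0.21 and 0.12 in the double knockout, where cortex keratins were lower too. By the same reference the double knockout had Krt40 at -1.35, Krt39 at -0.02, Krt35 at 0.74, Krt84 at 1.23 and Krt36 at 1.31. These 3 comparisons share the wildtype library. The members were chosen with earlier results of these data known, so their counts past the size rule are a description. In bulk tissue, fewer cells of a type and less RNA per cell cannot be told apart.

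**Figure D2:**
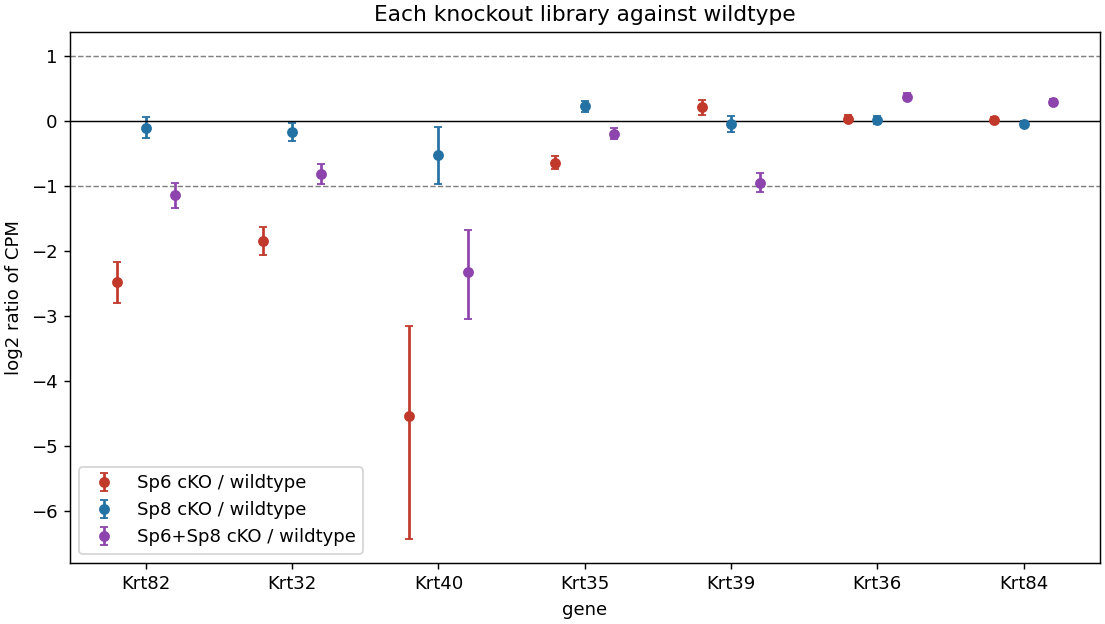
Log2 ratio of CPM to wildtype (no prior count) for each keratin in the 3 cKO libraries, with exact 95% intervals for counting error. Dashed lines are at a log2 ratio of 1 in either direction. Krt82, Krt32 and Krt40 lie below the lower line in Sp6 cKO, and all Sp8 cKO points lie between the lines.

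Within batch 1 the Sp6 cKO differences were about as large. Against Sp8 cKO, Krt82 was 5.18-fold lower (95% interval 4.16 to 6.52), Krt32 3.21-fold lower (95% interval 2.75 to 3.77) and Krt40 16.1-fold lower (95% interval 5.995 to 61.0) in Sp6 cKO. These were 3 of 7 members lower and 0 higher, against 1.75% and 1.35% (3.1% in all) of 16912 genes. Krt35 was 1.83-fold lower (95% interval 1.70 to 1.97), inside the size rule, and Krt36, Krt39 and Krt84 had log2 ratios of 0.02, 0.26 and 0.06. The Sp8 cKO library differed from the others in its Xist level and held the most erythroid RNA, with erythroid genes summing to 687 CPM against 336 in Sp6 cKO, and the part of either in these ratios was not tested.

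The double knockout library was next set against each single knockout within batch 1. Against Sp6 cKO, Krt82, Krt32 and Krt40 were higher, by 2.52-fold (95% interval 2.00 to 3.21), 2.05-fold (95% interval 1.75 to 2.42) and 4.61-fold (95% interval 1.57 to 18.4). Krt39 was 2.24-fold lower (95% interval 2.02 to 2.49). These were 3 members higher and 1 lower of 7, against 1.89% and 2.08% (3.97% in all) of 16848 genes. Krt40 had at most 1.43 CPM in both, and with a minimum of 5 CPM it was not called, leaving 2 higher and 1 lower. Against Sp8 cKO, Krt82 was 2.05-fold lower (95% interval 1.77 to 2.38) and Krt40 3.50-fold lower (95% interval 2.12 to 5.97), so 2 of 7 were lower and 0 higher, against 2.8% and 1.88% (4.68% in all) of 16889 genes. Krt82 lay close to the limit there, at a log2 ratio of -1.03, and no longer passed when libraries were scaled by totals without the 20 most abundant genes.

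The Sp6 cKO difference was then compared between libraries with and without Sp8 cKO, as the log2 ratio of Sp6+Sp8 cKO to Sp8 cKO minus that of Sp6 cKO to wildtype. For Krt82 the log2 ratios of CPM, with no prior count, were -1.04 and -2.47, a difference of 1.44 (95% counting interval 1.07 to 1.80). For Krt32 they were -0.65 and -1.85, a difference of 1.20 (95% counting interval 0.933 to 1.47), and for Krt40 the difference was 2.73 (95% counting interval 1.13 to 4.32). In each of these genes the Sp6 cKO shortfall was smaller in the Sp8 cKO setting. Sp6 transcripts were also less reduced there, and the part of this in the keratin differences was not tested. Krt39 went the other way, at -0.90 and 0.22, a difference of -1.12 (95% counting interval -1.31 to -0.93). Krt35, Krt36 and Krt84 had differences of 0.22, 0.32 and 0.32. No replicates exist to test these differences, and the Sp6 cKO to wildtype term crosses batches.

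The pattern of Krt32 over the 4 libraries was closest to that of Sp6 itself. Likeness was the Euclidean distance between log2 CPM values centred on each gene's mean, over 10036 other genes with at least 10 CPM in 1 library, and Sp6 ranked 1 for Krt32 at a distance of 0.10. Fam26d, Procr, a protein C receptor, Krtap26-1 and Krtap16-1 came next, the last pair being keratin-associated proteins of hair, at distances from 0.23 to 0.38. By Pearson correlation over the same 4 libraries Sp6 ranked 9 for Krt32. As ratios to the wildtype level, Sp6 and Krt32 were at 0.978 and 0.893 in Sp8 cKO, 0.591 and 0.571 in the double knockout and 0.299 and 0.278 in Sp6 cKO. This is a likeness over 4 libraries, of which 2 are labelled as Sp6 knockouts.

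For Krt82 the nearest genes were Krtap5-5, Krtap28-10, Krtap16-1, Krtap5-2 and Krtap12-1, all keratin-associated proteins of hair, at distances from 0.12 to 0.36, and Sp6 ranked 11. Krtap5-5, for example, stood at 31.3 CPM in wildtype and 29.6 in Sp8 cKO, 6.05 in Sp6 cKO and 15.7 in the double knockout. For Krt40 they were Krtap28-13, Krtap5-4, Krtap24-1, Krt72 and Lyg2, at distances from 0.72 to 1.08, and Sp6 ranked 18. Krt39 had other neighbours, namely Rny1, Klk15, Krtap3-1, Cilp2 and Cdsn, the last encoding corneodesmosin, a cell adhesion protein of cornified cells, at distances from 0.11 to 0.17. Sp6 ranked 9945 for Krt39, and the 7 cortex keratins ranked between 20 (Krt81) and 573 (Krt33a). Krt35, Krt36 and Krt84 varied by less than 1 in log2 CPM and were not matched.

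**Figure D3:**
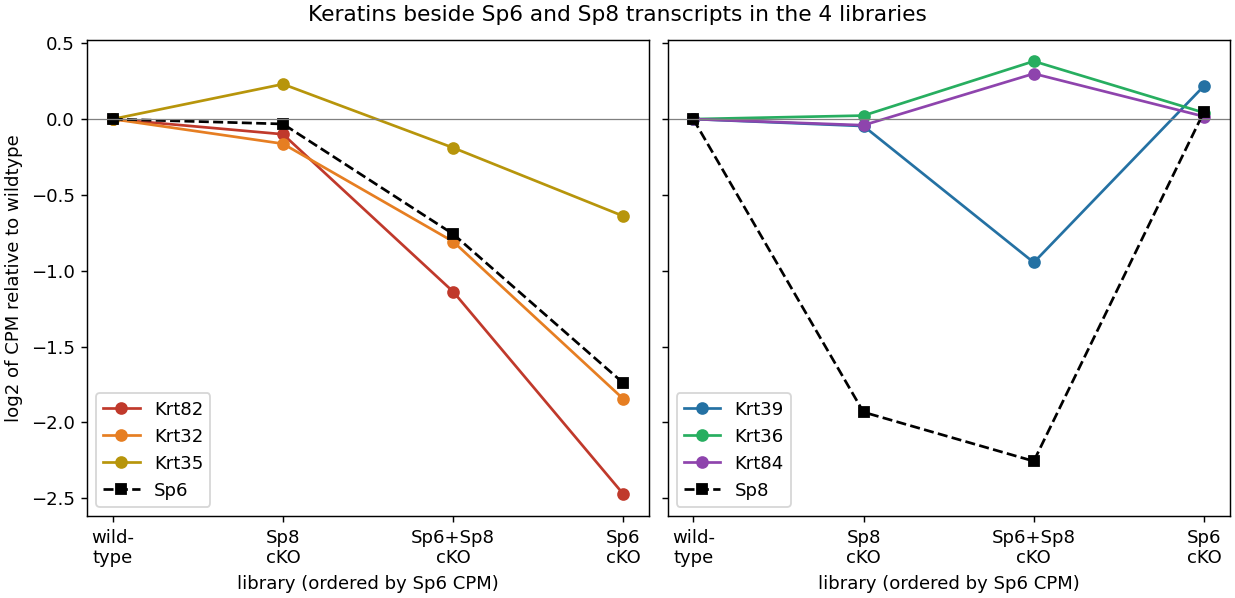
Log2 CPM relative to wildtype in the 4 libraries, ordered by Sp6 level, for Krt82, Krt32 and Krt35 beside Sp6 (left) and for Krt39, Krt36 and Krt84 beside Sp8 (right), 1 library per point. Krt32 runs within 0.13 of the Sp6 line in every library, and Krt36 and Krt84 are highest in Sp6+Sp8 cKO.

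The members' share of the trichocyte keratin pool does not depend on scaling between libraries. Members made up 16.6% of the counts of members and 7 cortex keratins in wildtype (exact 95% interval 16.4 to 16.8), 14.3% in Sp6 cKO (14.1 to 14.6), 14.6% for Sp8 cKO (14.3 to 14.8) and 28.9% for the double knockout (28.5 to 29.3). The double knockout stood apart. Its cortex keratins summed to 2624 CPM, against 4998 in wildtype, 5842 in Sp8 cKO and 5288 in Sp6 cKO, while the members summed to between 885 and 1066 CPM in the 4 libraries.

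Ratios between members of a library need no scaling either. Krt82 had 10.1 counts per 100 counts of its neighbour Krt84 in wildtype and 9.72 in Sp8 cKO, 1.80 in Sp6 cKO and 3.74 in the double knockout. The Sp6 cKO interval (1.46 to 2.20) and the double knockout interval (3.31 to 4.20) overlapped neither each other nor the others. Krt32 had 21.8 and 19.1 counts per 100 of Krt36 in those first 2 libraries, 5.88 in Sp6 cKO and 9.54 in the double knockout. Krt40 had 10.4 and 7.47 counts per 100 of its neighbour Krt39, then 0.386 and 3.99. Krt84 and Krt36 together gave most member counts in every library, at 41.1% and 27.2% of them in wildtype, so the members' sum mostly counts these.

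Of 7 cortex keratins, which build the fibre and plate, 0 passed the size rule in Sp6 cKO, with a median log2 ratio to wildtype of 0.09, and 2, Krt33b and Krt83, were lower in Sp6+Sp8 cKO at -1.26 and -1.13 (median -0.96). The gene named Krt83 in the table carries the symbol Krt87 in GENCODE M21. Of 8 inner root sheath keratins 3 were lower in Sp6 cKO, with Krt72 6.32-fold lower (95% interval 4.81 to 8.44), Krt26 4.46-fold lower (95% interval 3.54 to 5.69) and Krt28 2.10-fold lower (95% interval 1.73 to 2.56). Their median was -0.89 there, -0.01 in Sp8 cKO and -0.50 in the double knockout, where Krt72 and Krt26 were lower at -1.78 and -1.62. None of 6 companion layer and nail bed keratins passed against wildtype in any of the 3, where between 3.82% and 5.79% of all genes compared did.

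**Figure D4:**
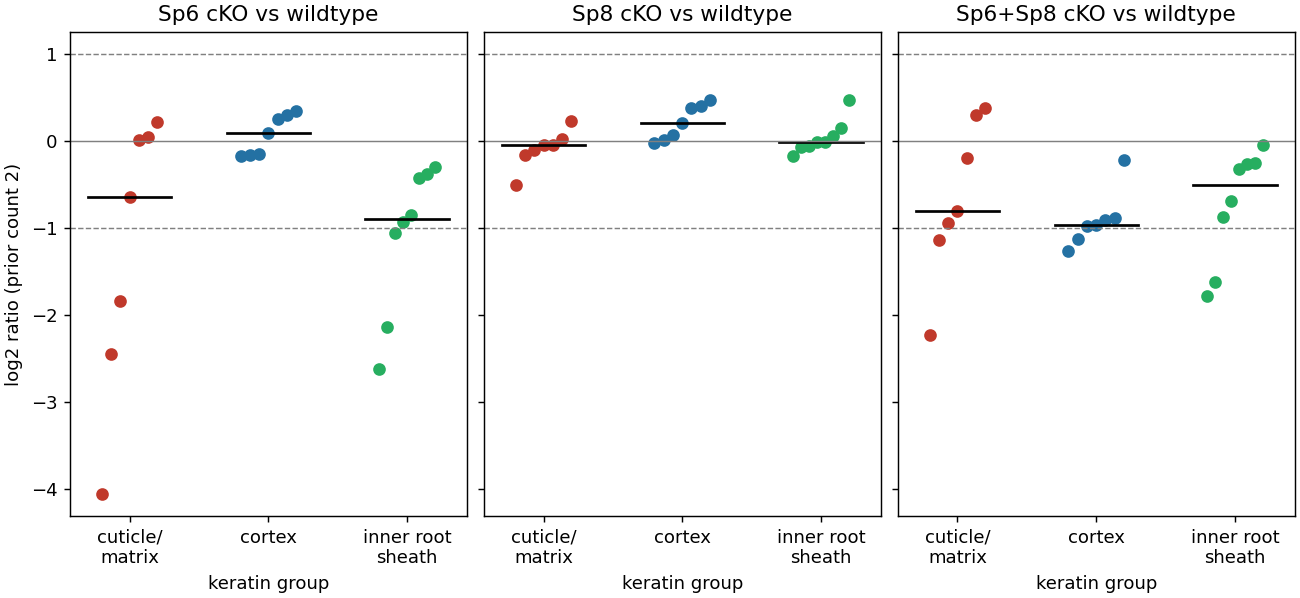
Log2 ratio to wildtype (prior count 2) of cuticle and matrix members, cortex keratins and inner root sheath keratins in the 3 cKO libraries, 1 point per gene, with group medians as bars. In Sp6 cKO the cortex keratins lie between -0.17 and 0.35 while members reach -4.06 and inner root sheath keratins -2.62.

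Among 15 genes that cornify or join the cells of hair and nail, 5 were lower in Sp6 cKO than in wildtype and 0 higher. Over all genes compared, 2.16% were lower and 2.24% higher. Vsig8, a surface protein of hair and nail, was at a log2 ratio of -1.74, Crnn (cornulin) at -1.32, Tchh (trichohyalin) at -1.17 and Padi1, a peptidylarginine deiminase, at -1.04, and S100a3, a calcium-binding protein of the hair cuticle, at -1.01. Within batch 1, against Sp8 cKO, Vsig8 at -1.76 and S100a3 at -1.19 were the 2 lower, where 1.75% of all genes compared were lower. In Sp6+Sp8 cKO 3 were lower, Crnn at -1.73, Dsg4 (desmoglein 4) at -1.14 and Vsig8 at -1.14, and Dsc2 (desmocollin 2) was higher at 1.08. Of all genes compared there, 2.95% were lower and 2.84% higher. In Sp8 cKO 0 of 15 passed against wildtype, against 3.82% of all genes compared.

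None of 15 regulators of hair and nail differentiation passed the size rule in any of the 6 comparisons. Over all genes compared, between 3.1% and 5.79% passed per comparison, so 0 of 15 is near that share. Hoxc13 stood at 66.1 CPM in wildtype and 57.6 in Sp8 cKO, 46.8 in Sp6 cKO and 39.7 in the double knockout, with log2 ratios to wildtype of -0.20, -0.50 and -0.73. It was lowest in the double knockout, where Krt82 and Krt32 were intermediate, and the part of Hoxc13 in their levels was not tested. Foxn1, a forkhead factor of differentiating hair and nail cells, was at 0.11, 0.08 and -0.45 in the same order, and Sox21, a factor of the hair cuticle, at -0.07, 0.20 and 0.43.

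Marker lists of other cells also moved between libraries. Beside the lower cuticle keratins of Sp6 cKO, T cell genes summed to 19.2 CPM against 2.76 in wildtype. Melanocyte genes summed to 16.4 CPM against 5.66. Past the size rule, 3 of 4 measured T cell genes and 4 of 4 measured melanocyte genes were higher. In wildtype those T cell genes had between 10 and 24 counts and those melanocyte genes between 8 and 47. None of 7 basal keratinocyte genes passed, and Krt77 was the 1 of 8 suprabasal genes that was lower, at -1.14. Over all genes compared with wildtype, 2.24% were higher and 2.16% lower in Sp6 cKO, and 2.84% and 2.95% in Sp6+Sp8 cKO. T cell genes were at 17.8 CPM in Sp6+Sp8 cKO and 7.22 in Sp8 cKO. In Sp6+Sp8 cKO, suprabasal keratinocyte genes summed to 13293 CPM against 18618 in wildtype, with Krt77 and Krtdap lower at -1.43 and -1.06, and fibroblast genes were between -0.47 and -0.06. Of 5 chondrocyte genes Chad and Col2a1 were lower there, at -1.35 and -1.34, and of 6 osteoblast genes Bglap and Bglap2 were lower, at -1.56 and -1.09, and Ibsp higher, at 1.01. The part of these in the keratin differences was not tested.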

How the data were processed

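Gene-level values of 4 libraries were used. Per the labels, mRNA was selected by its poly-A tail, second strands were marked with dUTP and reads were paired, 150 bp each. The submitters' processing notes list Salmon, STAR, featureCounts, edgeR, deepTools and Trim Galore 0.6.4, with no roles, and GRCm38. The annotation release was not stated. The authors deposited estimated counts per gene, unscaled, and 1 column that fits no sample here was left out.

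The values were rounded to whole numbers and scaled by TMM (edgeR 4.0.16, R 4.3.3). Log2 ratios used a prior count of 2. Intervals of ratios and shares are exact Clopper-Pearson 95% intervals. Those of differences between log2 ratios are normal approximations from reciprocal counts, which are rough for the 4 counts of Krt40, and plotted levels have exact Poisson intervals. Amplified reads without molecular identifiers are not independent molecules. Alternatives were DESeq2 1.42.0 size factors, library totals with and without the 20 most abundant genes, prior counts of 0.5 and 5, a minimum of 5 CPM, a 1.5-fold rule and a cortex keratin reference. The size rule was tried on simulated counts with counting error only, which cannot show how it behaves under variation between animals or batches.

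The members and lists were chosen with earlier results of these data known. Named genes are all members, up to 4 genes per other list and comparison past the size rule, and the 5 genes nearest in pattern to each member with a log2 range of at least 1. S100a3, Hoxc13, Foxn1, Sox21 and the sex-linked genes were named after their values were seen. Of the 31-base words in member transcripts, between 0% (Krt39) and 5.77% (Krt35) occur in another gene, where reads could be assigned wrongly.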

Additional observations from a re-analysis of the deposited data

How the results depend on the processing

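Of 42 log2 ratios, none left its counting interval with DESeq2 size factors, library totals or other prior counts, and 1 did with totals without the 20 most abundant genes. With those totals 1 member, not 2, passed between Sp6+Sp8 cKO and Sp8 cKO. With a 1.5-fold rule 4 passed in that comparison and 4 between Sp6+Sp8 cKO and wildtype. With a minimum of 5 CPM, Krt40 was lost between Sp6+Sp8 cKO and Sp6 cKO, leaving 3 of 4. Relative to the summed cortex keratins 31 of 42 ratios left their interval and 1 called ratio reversed, Krt82 between Sp6+Sp8 cKO and Sp8 cKO, at 0.12. With inner root sheath keratins in the denominator the members' share was 13.3% in wildtype and 11.9% in Sp8 cKO, 12.3% in Sp6 cKO and 21.6% in the double knockout. Without Krt84 it was 10.5%, 9.32%, 8.19% and 17.7%. In alternatives chosen after seeing the data, Sp6 ranked 1 in likeness to Krt32 under each scaling, prior count and CPM limit tried and 9 by Pearson correlation. For Krt82 it ranked between 2 and 16 and for Krt40 between 6 and 32. No paired analysis was possible because each genotype has 1 library, and no library could be left out. Depth limits Krt40 most, with 4 counts in Sp6 cKO.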
